A study of Mus musculus with 4 samples.

Results

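Voltage-gated and potassium ion channel genes were examined in the retina of mouse embryos with and without a deletion in Foxn3. Members were all genes whose symbol begins with Kcn, Cacn or Hcn, or with Scn followed by a digit. There were 117 of them among 18471 genes in the table. The rule used names only and no measured value. It also took in 4 noncoding RNAs named after a channel gene and 7 calcium channel gamma subunits, most of which are better known as partners of glutamate receptors.

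The libraries were made from total RNA of the retina at embryonic day 19, 2 labelled wild-type and 2 labelled Foxn3KO. The labels give the genotype of the latter as Foxn3-/- with exon 3 deleted, in the line C57BL/6NJ-Foxn3em1(IMPC)Bay/Mmnc, and each retina as coming from an individual genotyped embryo. No treatment is named for either group, and the labels name no promoter or cell type that limits the deletion. The series title sets Foxn3, a forkhead transcription factor, among the regulators of the primary cilium in retinal development.

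Ion channels set the electrical behaviour of neurons. Voltage-gated sodium channels start action potentials, voltage-gated potassium channels end them and set firing rate, and voltage-gated calcium channels couple voltage to transmitter release and gene expression. Inward rectifier and tandem-pore-domain potassium channels hold the resting potential and, in Müller glia, carry potassium away from active neurons, while HCN channels pass a current that opens on hyperpolarisation and shapes the light response of photoreceptors. Around birth the mouse retina holds spiking ganglion cells, amacrine cells with early synapses, and photoreceptor precursors that have yet to mature.

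Each library held 22543531 to 29360129 counts, so that 3 counts were worth 0.103 to 0.134 CPM (read counts scaled to library size, with TMM factors of 0.992 to 1.007). The channel genes together took 0.264% to 0.277% of the counts, and each of the 117 had a count in every library. Every gene read had at least 16 counts summed over the libraries, so undetected channel genes could not be among the 117. Foxn3 itself was higher in both libraries labelled Foxn3KO, at 144 and 144 CPM, than in either wild-type library, at 97.6 and 99.8 CPM, a log2 fold change of 0.54 (SE 0.046, adjusted p = 7.80e-08 by edgeR's quasi-likelihood test, adjusted by Benjamini-Hochberg over all genes). Counts per gene do not show exon 3, so this checks neither the deletion nor the labels, and the direction of every difference below rests on the labels as given. Wild-type replicate 1 stood apart: Xist had 83073 counts there and 9 to 19 in the other 3 libraries. The Y-linked genes Ddx3y, Eif2s3y and Kdm5d had 0 counts there and 1461 to 2317 elsewhere. By these genes that embryo was female and the others male, so sex differed within wild-type and both Foxn3KO embryos were male. Sex was not a term in the test, and its part in the differences below was not tested. The summed level of lens crystallin and fibre genes was 4.64 CPM in wild-type replicate 1. It was 71.1 CPM in wild-type replicate 2 and 244 CPM in each Foxn3KO library.

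Of the 110 channel genes with enough counts to test, 27 passed an adjusted p of 0.05, 13 higher and 14 lower in Foxn3KO. That was 24.5% of the channel genes tested, beside 21.9% of all 17300 genes tested (12.3% higher, 9.66% lower), so the share of channel genes that changed was near that of all genes. The median log2 fold change was -0.01 over the channel genes and -0.0047 over all genes. Most changes were small: 18 of the 27 differed by less than 1.5-fold. Only 10 passed with a change of 0.5 or more on the log2 scale, 9.09% of those tested, against 6.8% of all genes. Summed over all members, channel RNA came to 2626 and 2755 CPM in the wild-type libraries and 2678 and 2705 CPM in the Foxn3KO libraries, ranges that overlapped.

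The genes that rose and those that fell differed in level. Members that rose had a median wild-type level of 10.7 CPM, with 6 of the 13 under 10 CPM. Members that fell had a median of 46.4 CPM, with 2 of the 14 under 10 CPM. The wild-type level is also the base of each fold change, and the split was not made over all genes. These medians are therefore not read as a trait of channel genes. The genes Kcnj4 and Kcng1, which rose, passed the low-count filter through the Foxn3KO libraries alone, and a gene kept in that way had to differ, so these counts are no support for a direction. In bulk RNA, fewer cells of a type and less RNA per cell cannot be told apart, and this holds for each gene below. With 2 embryos a group, p-values rest on the spread between single embryos. Groups without overlap were common: 10449 of all 17300 genes tested and 69 of the 110 channel genes tested.

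The test calls depended on single libraries. Of the 27 genes, 9 passed under all 13 settings tried, which included leaving out each library. Among them, Kcne5, Cacng8, Cacng4 and Cacng2 rose, and Kcnj10, Scn9a, Kcna3 and Cacna1a fell. DESeq2 called 13 channel genes, 5 higher and 8 lower, or 11.8% of those tested against 14.1% of all genes. All 13 were among the 27. Without Foxn3KO replicate 1 the count was 14, and without Foxn3KO replicate 2 it was 16, with 13.1% and 13% of all genes called. Without wild-type replicate 1, the library that stood apart, the count was 28, or 24.3% of the channel genes tested and 24.3% of all genes, and 24 of the 28 were among the 27. Without wild-type replicate 2 it was 33, or 29.2% against 28.6% of all genes, of which 22 were among the 27, and those added included Hcn3, Hcn4, Kcna5 and Kcnb2.

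**Figure D1:**
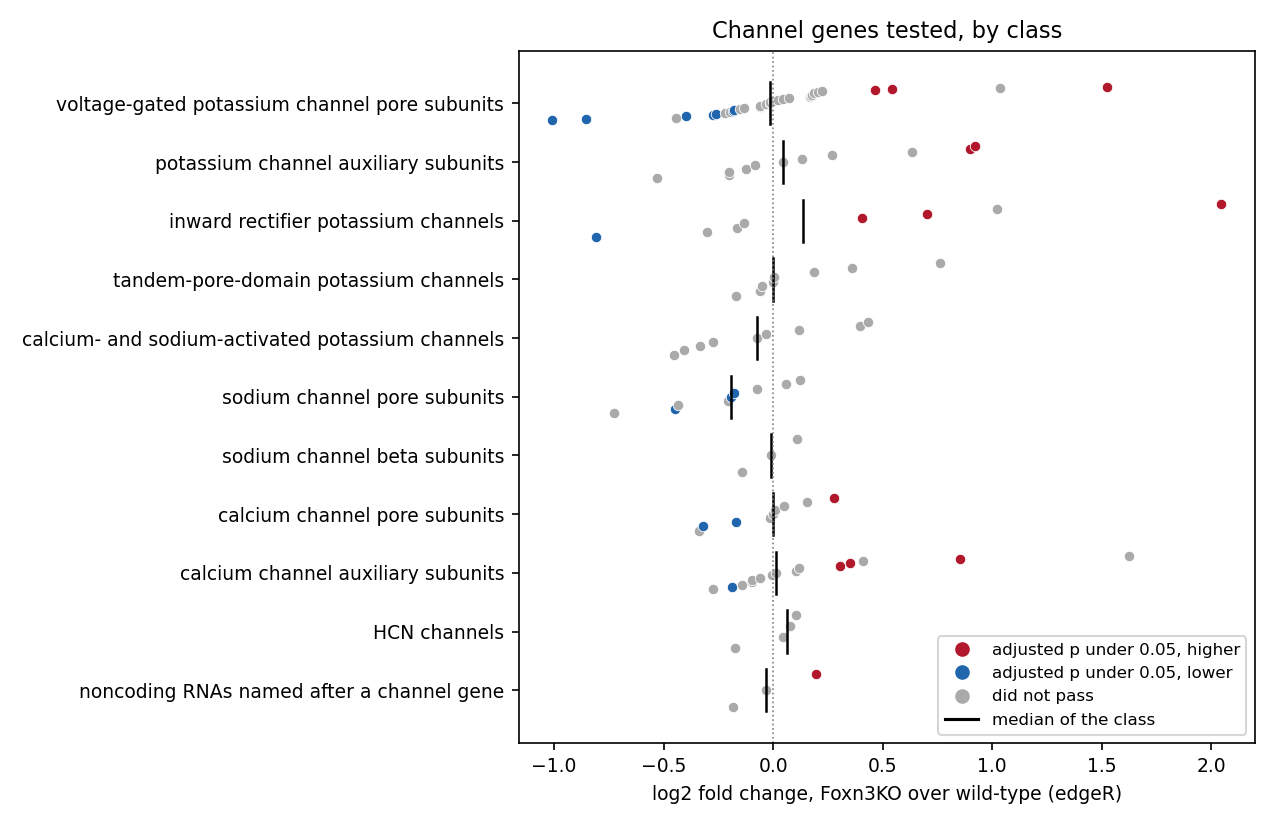
Log2 fold change of each tested channel gene (Foxn3KO over wild-type, edgeR), 1 row per class, with red points for genes higher and blue points for genes lower at an adjusted p under 0.05, grey for the rest, and a bar at the class median. All 3 sodium channel pore genes that passed were lower, and no tandem-pore-domain, calcium- and sodium-activated, sodium channel beta or HCN gene passed.

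Promoter sequences are shown for 4 of the genes that passed, to let the DNA upstream be compared between neighbours and between genes that moved in opposite directions. Kcnj9 and Kcnj10 are neighbours on chromosome 1; Kcnj9 rose and Kcnj10 fell. Kcna3 had the largest fall of any member tested, and Kcnip2 had the second largest rise among auxiliary subunits of potassium channels. Each sequence is the 250 bases before the RefSeq gene start on build GRCm38.p6, 5′ to 3′ on the strand of the gene, at chr1:172329323-172329572 (minus strand) for Kcnj9, chr1:172340960-172341209 (plus strand) for Kcnj10, chr3:107035912-107036161 (plus strand) for Kcna3 and chr19:45816064-45816313 (minus strand) for Kcnip2. No annotated exon overlapped these windows. Capitals mark matches, on either strand, to GTTGCCA (a part of the site of RFX factors, which switch on cilia genes), TGTTTAC (a forkhead site) or GACGC (a second forkhead-like motif), or to a reverse complement, which is TGGCAAC for the RFX letters, GTAAACA for the forkhead site and GCGTC for the forkhead-like motif.
Kcnj9: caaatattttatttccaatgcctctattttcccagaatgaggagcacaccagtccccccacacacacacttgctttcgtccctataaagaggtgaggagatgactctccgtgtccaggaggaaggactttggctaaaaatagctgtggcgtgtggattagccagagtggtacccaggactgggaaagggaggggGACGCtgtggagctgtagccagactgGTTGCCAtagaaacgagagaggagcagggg
Kcnj10: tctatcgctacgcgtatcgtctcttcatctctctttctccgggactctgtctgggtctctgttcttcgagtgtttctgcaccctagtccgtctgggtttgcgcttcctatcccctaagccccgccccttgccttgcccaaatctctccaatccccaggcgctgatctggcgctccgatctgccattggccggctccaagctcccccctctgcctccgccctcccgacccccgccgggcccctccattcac
Kcna3: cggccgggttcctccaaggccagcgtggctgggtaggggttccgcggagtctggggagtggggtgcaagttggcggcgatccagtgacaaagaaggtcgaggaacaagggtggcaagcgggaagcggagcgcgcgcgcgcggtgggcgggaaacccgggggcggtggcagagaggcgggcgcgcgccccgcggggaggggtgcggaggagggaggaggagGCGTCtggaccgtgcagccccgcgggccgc
Kcnip2: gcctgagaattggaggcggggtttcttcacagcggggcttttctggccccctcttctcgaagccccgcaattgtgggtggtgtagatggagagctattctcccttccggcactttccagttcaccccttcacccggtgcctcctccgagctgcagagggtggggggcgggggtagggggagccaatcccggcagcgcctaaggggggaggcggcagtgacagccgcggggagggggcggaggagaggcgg

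In these windows Kcnj9 held GACGC starting 56 bases before the gene start and GTTGCCA starting 30 bases before it, Kcna3 held GCGTC starting 30 bases before it, and Kcnj10 and Kcnip2 held no match. RefSeq gave 114 promoters for 82 of the 117 members, each of 300 bases. GTTGCCA or its reverse was in 5 of them, 4.39%, beside 4.38% of all 32851 promoters, and the genes were Hcn4, Kcnip1, Kcnj9, Kcnt2 and Scn2b. TGTTTAC was in 0 of 114, beside 3.65% of all promoters. GACGC was in 34 of 114, 29.8%, beside 27.2%. Channel promoters had a median GC content of 60.7%, against 52.7% over all promoters, and the median was 59.0% for 10 promoters of genes that rose and 62.0% for 13 promoters of genes that fell. Of the genes that passed, 19 had a promoter. Kcnc2 and Scn8a each gave more than 1 of the 13, so these promoters are not separate genes. A match is a run of letters and says nothing of binding.

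Levels between genes were compared per length, as the mean wild-type CPM divided by relative gene length (length-scaled CPM, where a gene of median length keeps its CPM). On this scale the most abundant channel RNAs of the embryonic retina were the calcium channel gamma subunits Cacng4 at 207 and Cacng7 at 196, the calcium channel beta subunit Cacnb3 at 129, and the tandem-pore-domain potassium channel Kcnk1 at 105. Next came the potassium channel auxiliary subunit Kcne5 at 72.7, the low-voltage-activated calcium channel Cacna1h at 70.1 and the Kv1 pore gene Kcna5 at 68.2. Auxiliary subunits thus held 4 of the 7 highest places. Of these 7, Cacng4 and Kcne5 rose, Cacng7 fell and 4 did not pass.

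**Figure D2:**
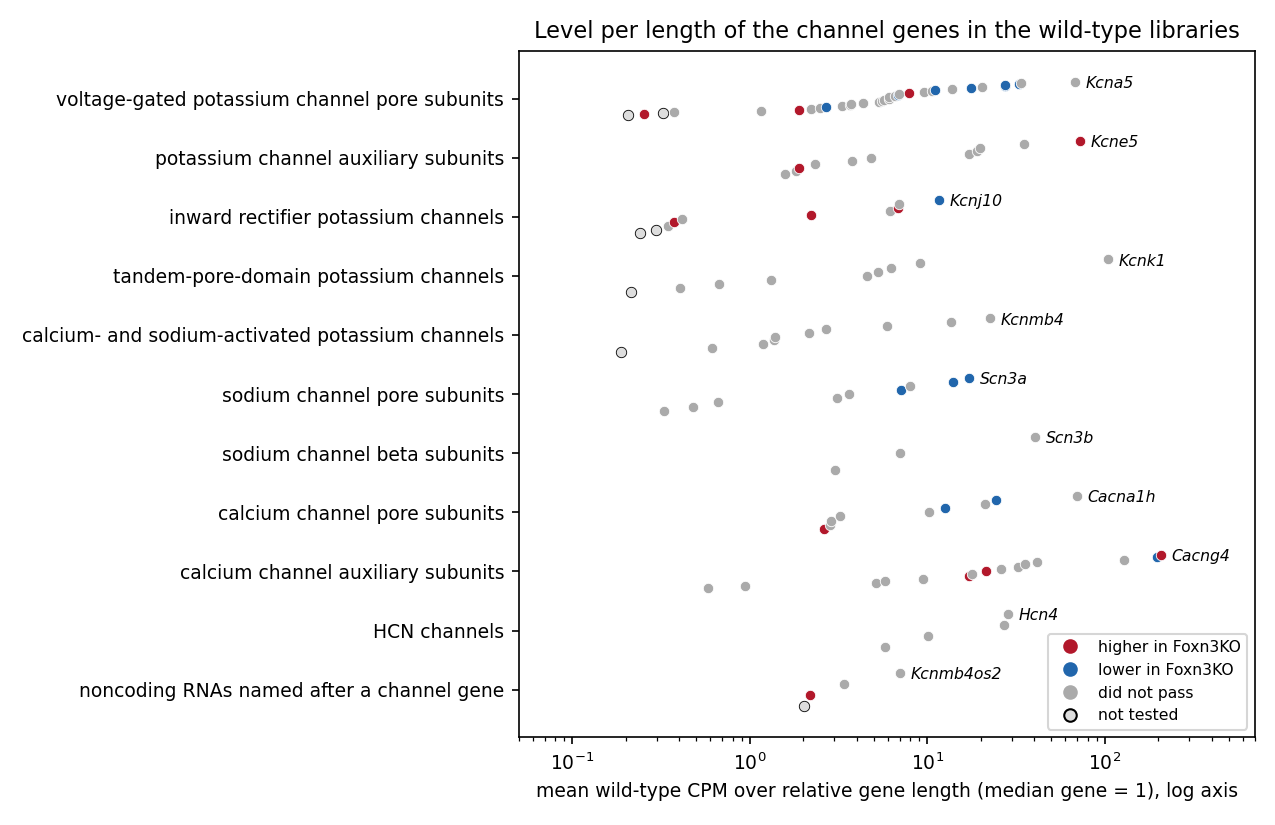
Mean wild-type CPM over relative gene length (log axis) for the 117 channel genes, 1 row per class, with the highest gene of each class named and points coloured by the genotype test (open points were not tested). Auxiliary calcium channel subunits reach the highest values, with Cacng4 at 207, and several inward rectifiers lie under 1.

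Pore-forming genes of voltage-gated potassium channels formed the largest class, with 33 members, of which 31 were tested. Of these, 3 rose (9.68%), 7 fell (22.6%) and 21 did not pass, beside 12.3% higher and 9.66% lower among all genes tested. The class median was -0.02. The class sum was 626 and 652 CPM in the wild-type libraries and 599 and 611 CPM in the Foxn3KO libraries, which did not overlap. The falls included 3 of 6 Kv1 genes and 1 of 3 Kv4 genes, which carry low-threshold and transient currents in neurons. The rises were 1 of 7 Kcnh genes and 2 of the 5 tested genes for electrically silent subunits.

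Among Kv1 genes, which make low-threshold channels that damp repetitive firing, Kcna3 measured 3.63 and 3.20 CPM in the wild-type libraries and 1.58 and 1.83 CPM in the Foxn3KO libraries. The wild-type libraries were both above the Foxn3KO libraries, by a log2 fold change of -1.01 (SE 0.226, edgeR, adjusted p = 0.00357). Its relative Kcna1, the channel of juxtaparanodes and axon terminals, showed the same order, with 3.51 and 3.31 against 1.82 and 1.96 CPM (log2 fold change -0.85, adjusted p = 0.00867). Kcna2, which assembles with Kcna1 and lies next to Kcna3 on chromosome 3, was far more abundant in CPM and fell less, from 34.4 and 34.7 CPM to 28.2 and 29.4 CPM (-0.26, adjusted p = 0.00962). Kcna5, the most abundant Kv gene per length and a neighbour of Kcna1 on chromosome 6, lay on the other side, at 50.5 and 52.4 against 55.5 and 60.1 CPM, and did not pass (0.17, adjusted p = 0.0528). Without Foxn3KO replicate 1 Kcna1 and Kcna2 did not pass (adjusted p = 0.0595 and 0.135), nor with all 4 libraries in DESeq2 (adjusted p = 0.061 and 0.0606).

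Kv3 channels open at strongly depolarised voltages and close fast, which lets fast-spiking neurons fire at high rates. Kcnc2 measured 53.4 and 50.3 CPM in wild-type and 42.0 and 43.6 CPM in Foxn3KO, with no overlap (log2 fold change -0.28, SE 0.0605, edgeR, adjusted p = 0.00297). Without Foxn3KO replicate 1 the adjusted p of Kcnc2 was 0.0507.

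Kcnd3, a Kv4 gene for transient A-type current, measured 82.8 and 84.2 CPM in wild-type and 74.4 and 73.0 CPM in Foxn3KO (log2 fold change -0.18, edgeR, adjusted p = 0.0155). The replicates lay within 2 CPM of each other and the groups were clear of one another, though the change was small. The gene missed the threshold without Foxn3KO replicate 1 (adjusted p = 0.108), without Foxn3KO replicate 2 (adjusted p = 0.194) and in DESeq2 (adjusted p = 0.0649). Kcnq5, a gene of the Kv7 group, lay just outside the threshold (1.04, adjusted p = 0.0535).

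Kcnv2 encodes a silent subunit that joins Kv2 channels in photoreceptors, where its loss causes a cone dystrophy. It measured 11.3 and 10.05 CPM in wild-type and 13.4 and 16.2 CPM in Foxn3KO, a rise of 0.47 on the log2 scale (SE 0.115, edgeR, adjusted p = 0.00693). The groups did not overlap, but Foxn3KO replicate 2 was well above replicate 1, and without it the adjusted p was 0.132. The Kv2 gene Kcnb2 did not pass, at 15.8 and 13.6 against 12.3 and 13.0 CPM (-0.22, adjusted p = 0.154). Among 13 photoreceptor precursor markers, 6 (46.2%) rose and 0 fell, beside 12.3% higher and 9.66% lower among all genes tested. Nrl (log2 fold change 0.28, adjusted p = 0.000549) and Pde6h (0.60, adjusted p = 0.00029) were among the 6. The other 7 did not pass, among them Crx (0.06, adjusted p = 0.354), Otx2 (-0.02, adjusted p = 0.75) and Thrb (-0.18, adjusted p = 0.055). Of the 13 fold changes, 3 were below 0. The summed level of the 13 was 1658 and 1650 CPM in wild-type and 1704 and 1719 CPM in Foxn3KO. The part of these markers in the Kcnv2 value was not tested.

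The other rises in the class were at low level. Kcnh1, an ether-à-go-go channel, measured 3.71 and 3.61 CPM in wild-type and 5.43 and 5.22 CPM in Foxn3KO (log2 fold change 0.54, edgeR, adjusted p = 0.0256), and did not pass in DESeq2 (adjusted p = 0.14) or without any 1 of 3 libraries (adjusted p = 0.0577 without wild-type replicate 2, 0.143 and 0.0762 without Foxn3KO replicates 1 and 2). Kcng1, a silent partner of Kv2 channels, had 3 and 13 counts in wild-type and 26 and 20 counts in Foxn3KO. The fitted log2 fold change was 1.52 (adjusted p = 0.0428), but leaving out wild-type replicate 1 gave 0.89 (adjusted p = 0.245) and leaving out replicate 2 gave 2.83, so the wild-type libraries set its size. It also did not pass without either Foxn3KO library (adjusted p = 0.117 and 0.0763), and DESeq2 gave no adjusted p.

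**Figure D3:**
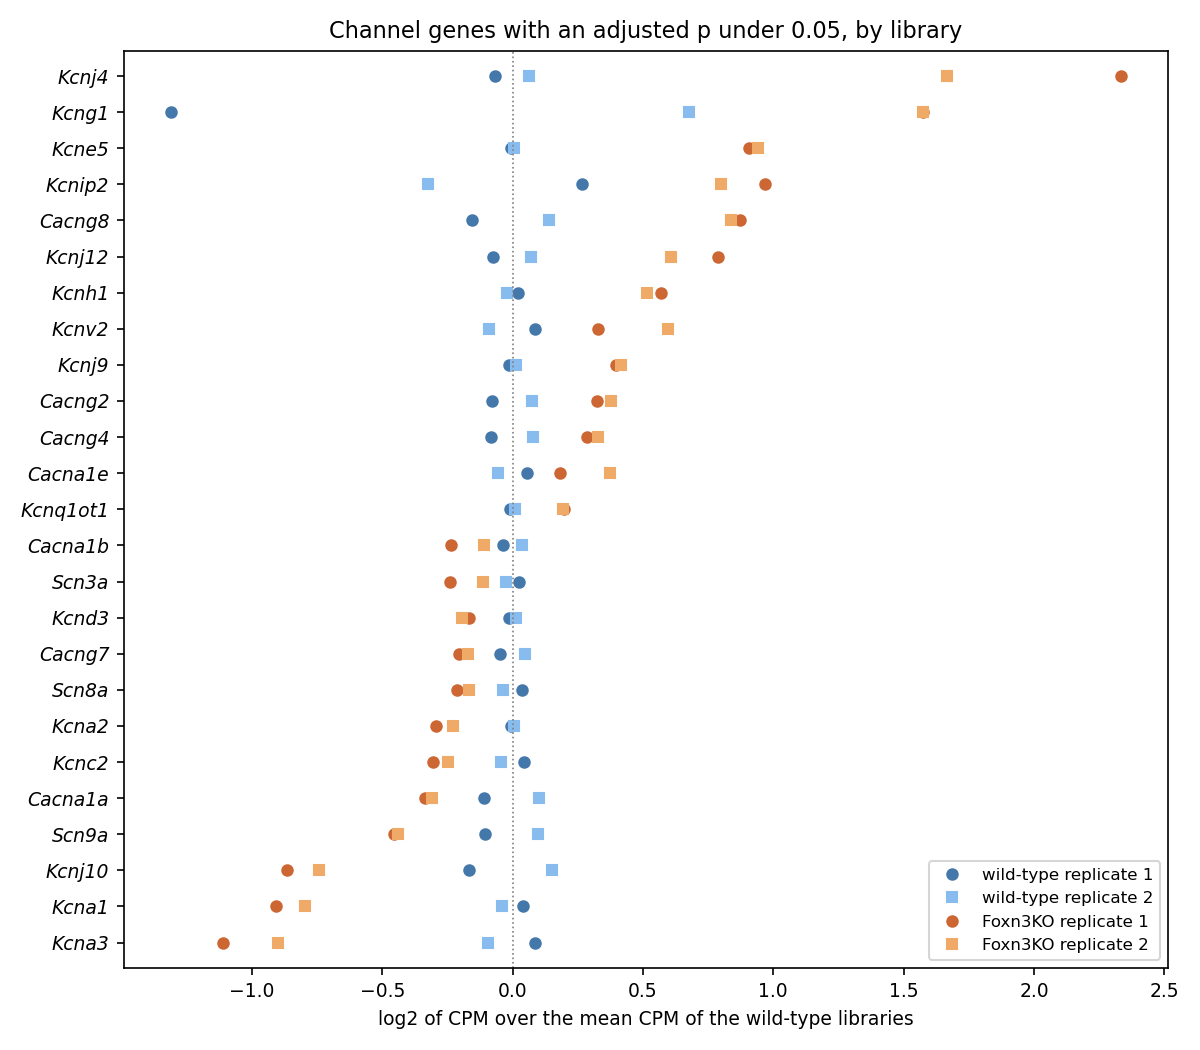
Log2 of each library's CPM over the mean of the wild-type libraries for 25 of the 27 channel genes that passed, with blue symbols for wild-type, orange for Foxn3KO, circles for replicate 1 and squares for replicate 2. The groups do not overlap in any of the 25 genes drawn, nor in 10449 of all 17300 genes tested. The widest wild-type spread is that of Kcng1.

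Auxiliary subunits of potassium channels numbered 11, and 2 rose (18.2%), 0 fell and 9 did not pass (median 0.04). Among all genes tested, 12.3% rose and 9.66% fell. Kcne5 showed the firmest change of all channel genes. Its product is a small single-pass protein that slows or blocks the Kv channels it binds. It measured 29.4 and 29.7 CPM in the wild-type libraries and 55.4 and 56.8 CPM in the Foxn3KO libraries, means of 29.6 ± 0.161 and 56.1 ± 0.986 CPM (SD, n = 2). Replicates were nearly alike and the groups far apart, with a log2 fold change of 0.92 (SE 0.0609, edgeR, adjusted p = 2.34e-09). The fold change was between 0.91 and 0.94 whichever library was left out. Kcne5 is X-linked, and the wild-type library with high Xist, at 29.4 CPM, was close to the other. On the length-scaled scale it went from 72.7 to 138. With it, the class sum was 180 and 177 CPM in wild-type and 205 and 201 CPM in Foxn3KO.

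Kcnip2, a calcium-binding partner of Kv4 channels, measured 2.22 and 1.47 CPM in wild-type and 3.61 and 3.21 CPM in Foxn3KO. The Foxn3KO libraries were both higher, by 0.90 on the log2 scale (SE 0.237, edgeR, adjusted p = 0.0107), while DESeq2 gave an adjusted p of 0.0584. The 2 wild-type libraries differed: the log2 fold change was 1.22 without replicate 1 and 0.63 (adjusted p = 0.0768) without replicate 2, and the adjusted p was 0.0595 without Foxn3KO replicate 1. Kcne1, the partner of the cardiac Kv7 channel, lay just outside the threshold (0.64, adjusted p = 0.0553). The abundant beta subunit Kcnab2, which binds Kv1 channels, did not pass (64.2 ± 1.27 against 66.2 ± 0.936 CPM, SD, n = 2; 0.04, adjusted p = 0.617), nor did Kcnrg (0.13, adjusted p = 0.843).

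Inward rectifier potassium channels numbered 10, and of the 8 tested 3 rose (37.5%), 1 fell (12.5%) and 4 did not pass. Among all genes tested, 12.3% rose and 9.66% fell. Kcnj10, the glial channel that buffers potassium in Müller cells, was the member with the highest level per length in the class and the only one to fall. It measured 14.8 and 18.5 CPM in wild-type and 9.13 and 9.96 CPM in Foxn3KO, means of 16.7 ± 2.57 and 9.55 ± 0.582 CPM (SD, n = 2). The higher Foxn3KO library was well under the lower wild-type library, and the log2 fold change was -0.81 (SE 0.117, edgeR, adjusted p = 5.83e-05). It passed in DESeq2 (adjusted p = 1.95e-05), and leaving out a library gave -0.96 to -0.64.

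Some markers of glia and of pigment epithelium, which also holds inward rectifiers, were lower as well. Of 6 glial markers 3 fell and 0 rose: Gfap (log2 fold change -1.02, adjusted p = 7.18e-08), Slc1a3 (-0.40, adjusted p = 1.78e-06) and Rlbp1 (-0.31, adjusted p = 0.00349), while Glul, the most abundant, did not pass (0.05, adjusted p = 0.409). Their summed level was 861 and 878 CPM in wild-type and 816 and 812 CPM in Foxn3KO. Of 8 tested pigment epithelium markers 3 fell and 0 rose (5 calls without wild-type replicate 1, 1 without wild-type replicate 2), and the list summed to 53.6 and 78.9 CPM in wild-type and 43.2 and 44.2 CPM in Foxn3KO. With all libraries the falls were 50% of the glial and 37.5% of the pigment epithelium markers tested, beside 9.66% of all genes. The part of these markers in the Kcnj10 value was not tested.

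Kcnj9, whose product forms G-protein-activated channels with its relatives, is the neighbour of Kcnj10 and moved the other way. It measured 7.62 and 7.77 CPM in wild-type and 10.1 and 10.3 CPM in Foxn3KO, close replicates with no overlap (log2 fold change 0.41, SE 0.119, edgeR, adjusted p = 0.0204). Its adjusted p was 0.0914 and 0.105 without Foxn3KO replicates 1 and 2, and 0.114 in DESeq2. The strong rectifiers of the Kir2 group were scarce. Kcnj4 had 5 and 6 counts in wild-type and 31 and 15 in Foxn3KO (2.05, adjusted p = 0.00934, and 0.173 without Foxn3KO replicate 1), with no adjusted p from DESeq2. Kcnj12 was at 1.53 and 1.69 against 2.78 and 2.46 CPM (0.70, adjusted p = 0.046), a call lost when any 1 library was left out (adjusted p = 0.0581 to 0.267), in DESeq2 (0.213), in limma-voom (0.0577), in the earlier edgeR fit (0.0521) and with total count scaling (0.0508). Kcnj2 did not pass (1.02, adjusted p = 0.0841), and Kcnj11, the pore of the ATP-sensitive channel, was at 6.71 ± 0.324 against 6.12 ± 0.0591 CPM (SD, n = 2; -0.13, adjusted p = 0.559). Kcnj8 and Kcnj13 were not analysed here.

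No tandem-pore-domain potassium channel passed in edgeR or DESeq2 among 8 tested, with 1 at an unadjusted p under 0.05. These channels carry leak current. Kcnk1 was by far the most abundant, at 59.7 and 63.6 CPM in wild-type and 61.5 and 57.5 CPM in Foxn3KO, overlapping ranges (log2 fold change -0.05, adjusted p = 0.583). Kcnk2, a mechanosensitive channel, also overlapped (12.3 and 10.9 against 10.4 and 12.9 CPM). Kcnk13 had 10 and 7 counts against 25 and 4, with no order between the groups (0.76, adjusted p = 0.435).

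Calcium- and sodium-activated potassium channels gave 0 calls of 9 tested in edgeR and in DESeq2, with 1 at an unadjusted p under 0.05, and a median of -0.07. They follow spikes with a hyperpolarisation. Without wild-type replicate 1, Kcnt1 passed (-0.61, adjusted p = 0.0117). The most abundant per length were the beta subunit Kcnmb4 (19.9 ± 0.622 against 18.9 ± 0.471 CPM, SD, n = 2; -0.07, adjusted p = 0.589) and the small-conductance channel Kcnn1 (16.5 ± 1.03 against 17.9 ± 0.102 CPM; 0.12, adjusted p = 0.385). Kcnu1, known as a sperm channel, was at 1.73 and 0.957 against 2.09 and 1.34 CPM and overlapped (0.40, adjusted p = 0.435).

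Most sodium channel pore genes had a fold change below 0. Of 9 tested, 0 rose, 3 fell and 6 did not pass, with 7 of the 9 fold changes below 0 and a median of -0.19. Among all genes tested, 9.66% fell and 8801 of 17300 fold changes were below 0. DESeq2 called 1 of the 9. The class summed to 181 and 181 CPM in wild-type and to 160 and 162 CPM in Foxn3KO, without overlap.

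Scn9a, a channel that amplifies small depolarisations and is best known from pain neurons, measured 22.1 and 25.4 CPM in wild-type and 17.3 and 17.5 CPM in Foxn3KO. The Foxn3KO replicates were alike and both lower, by -0.45 on the log2 scale (SE 0.0878, edgeR, adjusted p = 0.00116), and the change passed under every setting. Scn8a, the main channel of the mature ganglion cell initial segment, was at 59.1 and 56.2 against 49.7 and 51.3 CPM (-0.19, adjusted p = 0.0226). Scn3a, an embryonic brain channel, was at 53.4 and 51.5 against 44.5 and 48.4 CPM (-0.18, adjusted p = 0.049). In DESeq2 Scn8a and Scn3a had an adjusted p of 0.102 and 0.18. Leaving out Foxn3KO replicate 1 or 2 gave Scn8a an adjusted p of 0.23 or 0.0962 and Scn3a one of 0.481 or 0.0638, and Scn3a also missed the threshold without wild-type replicate 1 (0.0632) and with RLE factors.

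Scn2a overlapped between groups (0.12, adjusted p = 0.322), although without wild-type replicate 2 it passed as higher (0.25, adjusted p = 0.0209). Overlap was also seen in the muscle channel Scn4a, at 1.21 and 1.25 against 1.17 and 1.43 CPM (0.06, adjusted p = 0.918). Of 3 beta subunits, which anchor and tune the pores, 0 passed in edgeR or DESeq2 and 0 had an unadjusted p under 0.05. Scn3b was the most abundant of them per length, at 58.4 ± 3.96 against 62.9 ± 3.73 CPM (SD, n = 2; 0.11, adjusted p = 0.248), and passed without wild-type replicate 2 (0.17, adjusted p = 0.0182).

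Calcium channel pores split within the Cav2 group, which drives transmitter release at synapses. Of 9 pore genes tested, 1 rose (11.1%), 2 fell (22.2%) and 6 did not pass, beside 12.3% higher and 9.66% lower among all genes. All 3 calls were the 3 Cav2 genes. The Cav1 and Cav3 genes, 3 each, did not pass. The class sum was 443 and 461 CPM in wild-type and 436 and 442 CPM in Foxn3KO.

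Cacna1a, the P/Q-type channel, measured 37.9 and 43.9 CPM in wild-type and 32.4 and 33.0 CPM in Foxn3KO. Both Foxn3KO libraries were lower (log2 fold change -0.32, SE 0.0735, edgeR, adjusted p = 0.00402), and leaving out a library gave -0.42 to -0.21. Cacna1b, the N-type channel, was at 62.5 and 65.6 against 54.4 and 59.4 CPM (-0.17, adjusted p = 0.0468). Cacna1e, the R-type channel, moved up from 18.1 and 16.7 to 19.7 and 22.5 CPM (0.28, adjusted p = 0.0374). Calls of these 2 genes were lost under several settings: in DESeq2 the adjusted p was 0.159 for Cacna1b and 0.15 for Cacna1e, and without wild-type replicate 2 it was 0.0639 and 0.109. Without Foxn3KO replicate 1 it was 0.49 for Cacna1b, and without Foxn3KO replicate 2 it was 0.0533 for Cacna1b and 0.393 for Cacna1e.

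Cacna1h, a T-type channel, was the most abundant pore of the class per length and did not pass, at 199 and 203 CPM against 201 and 197 CPM, overlapping (log2 fold change -0.01, adjusted p = 0.852). Cacna1f, the L-type channel of photoreceptor terminals whose loss causes night blindness, was at 6.77 and 8.72 against 6.49 and 5.76 CPM and did not pass (-0.34, adjusted p = 0.127), although it did without wild-type replicate 1 (-0.50, adjusted p = 0.0128). Cacna1s was not analysed here.

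Auxiliary calcium channel subunits numbered 15. Of these 3 rose (20%), 1 fell (6.67%) and 11 did not pass, beside 12.3% higher and 9.66% lower among all genes tested. All 4 calls were among the 7 gamma subunits, with 0 of 4 alpha2delta and 0 of 4 beta subunits. The 4 gamma genes that passed belong to the TARPs, which carry AMPA-type glutamate receptors to synapses and slow their closing. The class sum was 742 and 811 CPM in wild-type and 811 and 815 CPM in Foxn3KO.

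Cacng8 measured 11.9 and 14.6 CPM in wild-type and 24.3 and 23.8 CPM in Foxn3KO, means of 13.3 ± 1.92 and 24.0 ± 0.395 CPM (SD, n = 2). Both Foxn3KO libraries were well above both wild-type libraries, with a log2 fold change of 0.85 (SE 0.098, edgeR, adjusted p = 4.09e-06). Cacng4, the most abundant channel-family RNA per length, was at 184 and 206 against 238 and 245 CPM (0.31, SE 0.0508, adjusted p = 0.000237). Cacng2, the founding TARP known as stargazin, was at 23.6 and 26.2 against 31.3 and 32.4 CPM (0.35, adjusted p = 0.00251). These 3 passed in DESeq2 and whichever library was left out.

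Cacng7, the neighbour of Cacng8 on chromosome 7, went the other way. It measured 122 and 131 CPM in wild-type and 110 and 112 CPM in Foxn3KO, with the groups apart (log2 fold change -0.19, SE 0.049, edgeR, adjusted p = 0.00966). It missed the threshold without either Foxn3KO library (adjusted p = 0.147 and 0.0628). Cacng1, the skeletal muscle subunit and a neighbour of Cacng4 on chromosome 11, had 4 and 6 counts against 13 and 18 and did not pass (1.63, adjusted p = 0.0635). Of the other members of the class, the abundant Cacnb3, which brings pores to the membrane, was at 136 ± 3.88 against 131 ± 4.29 CPM (SD, n = 2; -0.06, adjusted p = 0.424).

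**Figure D4:**
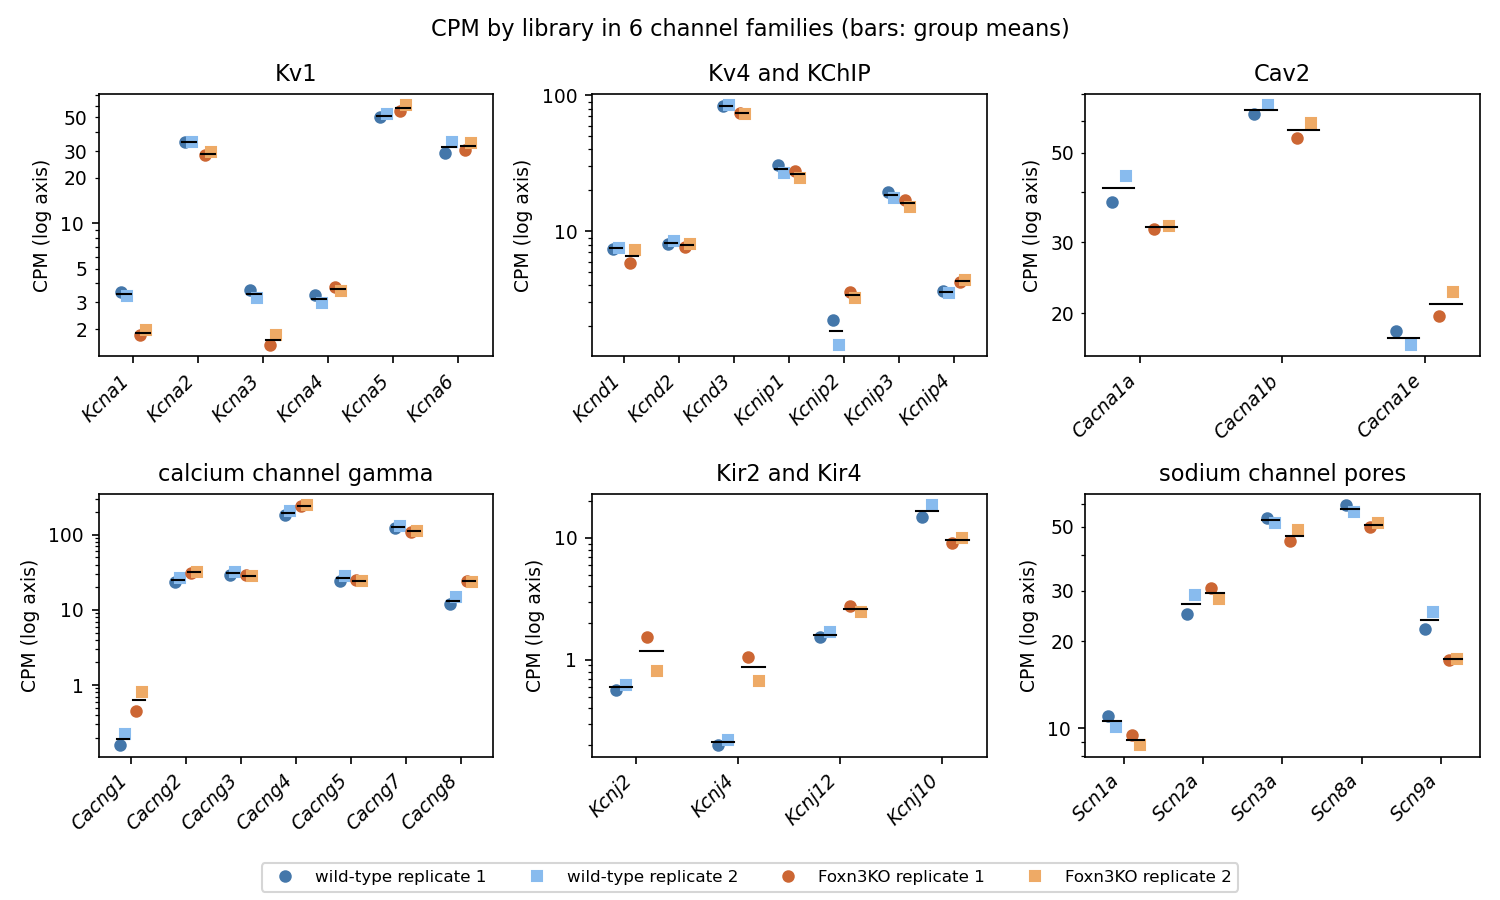
CPM in each library (log axes) for genes of 6 channel families, with blue symbols for wild-type, orange for Foxn3KO and a bar at each group mean. Kcna1 and Kcna3 fall within Kv1 while Kcna5 lies on the other side, Cacna1a and Cacna1b fall while Cacna1e rises, and Cacng2, Cacng4 and Cacng8 rise while Cacng7 falls.

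All 4 HCN genes were present and 0 passed in edgeR or DESeq2, with 1 at an unadjusted p under 0.05. Hcn2 was at 8.47 and 8.54 against 8.89 and 8.66 CPM (log2 fold change 0.05, adjusted p = 0.829). Hcn3 measured 30.7 and 28.6 against 24.9 and 27.7 CPM, apart by less than the Foxn3KO spread (-0.17, adjusted p = 0.12). Hcn4, the most abundant per length, measured 42.8 and 49.4 against 49.7 and 49.6 CPM (0.11, adjusted p = 0.298). With wild-type replicate 2 left out, 2 of the 4 passed in opposite directions, Hcn3 lower (-0.23, adjusted p = 0.0251) and Hcn4 higher (0.21, adjusted p = 0.00766).

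The 4 noncoding RNAs were kept in the counts and are not channels. Kcnq1ot1, the imprinted RNA that runs antisense to the Kcnq1 gene, measured 53.6 and 54.3 CPM in wild-type and 61.8 and 61.7 CPM in Foxn3KO, with near-equal replicates (log2 fold change 0.20, SE 0.0544, edgeR, adjusted p = 0.0153, and 0.0697 in DESeq2). It missed the threshold without either Foxn3KO library (adjusted p = 0.134 and 0.115). Kcnd3os (-0.18, adjusted p = 0.735) and Kcnmb4os2 (-0.03, adjusted p = 0.923) did not pass. Whether reads were counted by strand is not given in the sources used here, so reads of these RNAs and of the genes they overlap may be mixed.

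Genes that bind or place the channels were read from a separate list. Of 33 tested partners 4 rose (12.1%) and 3 fell (9.09%), near the 12.3% and 9.66% of all genes tested. Their 7 calls became 4 without either Foxn3KO library and 10 without either wild-type library. Dpp6, which joins Kv4 channels and speeds their A-type current, had the firmest rise, from 74.9 and 85.8 CPM in wild-type to 138 and 137 CPM in Foxn3KO (log2 fold change 0.78, SE 0.0576, edgeR, adjusted p = 1.25e-08). Its relative Dpp10 was called higher (0.28, adjusted p = 0.0226) but missed the threshold in DESeq2 (0.0922), without wild-type replicate 1 (0.129) and without Foxn3KO replicate 1 (0.143). Lgi4, a secreted protein of glia that acts on axons, fell from 33.6 and 40.4 to 22.8 and 24.2 CPM (-0.66, adjusted p = 1.55e-05). Among axonal proteins found beside the node of Ranvier, Cntnap2 rose (0.23, adjusted p = 0.00434) and Cntnap1 fell (-0.35, adjusted p = 0.0202). Cntnap2 did not pass without Foxn3KO replicate 2 (0.055), and Cntnap1 did not pass in DESeq2 (0.117) or when Foxn3KO replicate 1 (0.0737) or 2 (0.145) was left out.

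Markers of the other cell types were read in the same fit, and their part in the channel values was not tested. Among all genes tested, 12.3% rose and 9.66% fell, the shares to set beside the counts below. Of 13 ganglion cell markers 2 rose and 1 fell, with sums of 1739 and 1888 CPM in wild-type and 1873 and 1869 CPM in Foxn3KO. Of 12 amacrine and horizontal cell markers 2 rose and 4 fell, with sums of 882 and 943 against 944 and 926 CPM, and DESeq2 called 2 of the 12. Of 10 progenitor markers 1 rose and 1 fell. Leaving out each library in turn gave 1 to 5 calls for ganglion cell markers, 2 to 6 for amacrine and horizontal cell markers and 1 to 5 for progenitor markers, fewest without a Foxn3KO library. Of 8 lens markers 7 rose (2 in DESeq2), of 11 vessel and mesenchyme markers 3 rose (0 in DESeq2), of 5 choroid plexus markers 2 rose and 2 fell, and the 7 microglial, 5 blood and 3 skeletal muscle markers gave 0 calls in edgeR and in DESeq2, with 1 microglial marker at an unadjusted p under 0.05. The blood list gave 3 calls when wild-type replicate 1 was left out and 4 when replicate 2 was, with sums of 29.7 and 77.8 CPM in those libraries and 50.6 and 53.4 CPM in Foxn3KO.

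The authors' deposited table, which holds its own log2 fold changes and adjusted p-values, had 13 channel genes under an adjusted p of 0.05, 5 higher and 8 lower, against 16% of the genes that carry an adjusted p there. All 13 passed here in the same direction. That table comes from the same libraries, and the processing notes name DESeq2. DESeq2 as run here and the deposited table each called 2437 genes, so the deposited calls are no separate support. In the authors' deposited table Kcne5 had a log2 fold change of 0.91 and Kcnj10 one of -0.75, and 15 channel genes carried no adjusted p. The deposited fold changes are not the same measure as those of edgeR here. For low-count genes they were much smaller, at 0.37 against 2.05 for Kcnj4 and 0.21 against 1.52 for Kcng1.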

How the data were processed

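Total RNA of the retina of individual embryonic day 19 embryos (2 wild-type, 2 Foxn3KO) was sequenced with a strand-specific kit and adaptors carrying unique molecular identifiers, per the labels. The authors deposited raw read counts per gene, 1 column per library. The submitters' processing notes name the genome build mm39 and DESeq2. The aligner, counter, annotation, use of strand and use of the molecular identifiers are not given in the sources used here. The deposited FPKM values of the authors served to derive relative gene lengths. The mean signal that the authors deposited was not used in a test. The deposited log2 fold changes, their standard errors (a score here) and the p-values and adjusted p-values of the authors were only read.

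From the counts, 18471 genes were read after 1 repeated identifier was dropped. filterByExpr left 17300, with a level of about 0.387 CPM as its cutoff. Libraries were scaled with TMM. Genotype was tested, two-sided and with no other term, by the quasi-likelihood test of edgeR 4.0.16 under R 4.3.3, with its edgeR 4 fit set explicitly. Benjamini-Hochberg adjustment ran over all genes, with a threshold of 0.05. Standard errors were worked out of fold change and F value. Tested on simulated data with 17300 genes, the procedure called 72.3% of the 1.5-fold changes, 100% of the 2-fold and 100% of the 4-fold changes, with 8 false calls. In the simulation the changed genes were drawn from well-counted genes only, and every gene had a coefficient of variation of 0.08. These rates do not carry over to low-count genes such as Kcnj4 and Kcng1. Limits at 3 counts cover counting error only. Every per-sample column of the table was used.

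The channel genes, classes and lists were chosen with earlier results of these data known. Genes were named by rule: those that passed with a log2 fold change of at least 0.5 in size, the 2 per class with the smallest p among those that passed, the 2 per class most abundant per length, and a set of genes named in advance (such as Kcnj10, Kcnv2, Kcnb2 and Cacna1f). Some genes that these rules select are not reported here. Others near the threshold, those that passed outside these rules, and promoters shown were chosen after their values were seen. Lists covered channel partners, the sodium-potassium pump with chloride cotransporters, ciliary and sperm cation channels, chloride channels and cell type markers. The test was repeated with DESeq2 1.42.0, with limma-voom (limma 3.58.1) and with the earlier edgeR fit. It was also repeated with RLE factors, with scaling to total counts alone, without the filter, with a minimum of 10 counts per library, with the replicate number as a block, and with each library left out, where the lone sample is assumed to vary like the other group. A planned look at protein sequence features was not run, since no protein table was used here. Promoters came from RefSeq on GRCm38.p6, a build other than that of the counts. Figures were drawn with matplotlib 3.10.9.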

Additional observations from a re-analysis of the deposited data

How the results depend on the processing

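DESeq2 called 2437 of all genes, 13 channel genes and 33 genes of the related lists, against 3795, 27 and 55. By class it called 5 voltage-gated potassium pores, 1 auxiliary subunit of potassium channels, 1 inward rectifier, 1 sodium channel pore, 1 calcium channel pore and 0 noncoding RNAs. Leaving out each library in turn gave 2323 to 5067 calls over all genes, 14 to 33 over channel genes, and 38 to 71 over the related lists. By class the ranges were 4 to 13 for voltage-gated potassium pores, 1 to 3 for inward rectifiers, 0 to 1 for calcium- and sodium-activated channels, 1 to 5 for sodium channel pores, 0 to 1 for beta subunits, 1 to 4 for calcium channel pores, 3 to 5 for their auxiliary subunits, 0 to 2 for HCN channels and 0 to 1 for noncoding RNAs. Each of these fits rests on 1 library in a group, and the causes of the shifts were not tested. Fold changes near 0 changed sign: Kcnk2 was -0.0163 with total count scaling, -0.00113 with at least 10 counts, -0.0117 with limma-voom and -0.00012 with the replicate block. Leaving out libraries, the lowest and highest log2 fold changes were -0.151 and 0.158 for Kcnk2, -0.0264 and 0.000633 for Cacna1h, -0.856 and 1.38 for Kcnk13, -0.129 and 0.0631 for Kcnmb4os2, -0.184 and 0.586 for Kcnrg, -0.391 and 0.0549 for Scn2b, and -0.0738 and 0.215 for Scn4a. The inward rectifier median was 0.14, 0.35 without the low-count filter and -0.13 with at least 10 counts. With the replicate number as a block, 32 channel genes and 4222 of all genes passed; the genes added included Kcna5, Kcne1 and Kcnq5, and all 27 still passed. The correlation of replicate differences between the groups was -0.0141 over 17288 genes. With 1 difference per group, this cannot tell whether same-numbered embryos were paired. Depth limits genes such as Kcnj4, Kcng1 and Cacng1, which had 31 counts or fewer in every library.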

Other observations

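Ion transporters that set the gradients for these channels also changed. Of 13 tested genes for the sodium-potassium pump and chloride cotransporters, 6 rose (46.2%) and 1 fell (7.69%), with a median log2 fold change of 0.12. Among all genes tested, 12.3% rose and 9.66% fell. The list summed to 1373 and 1468 CPM in wild-type and 1590 and 1620 CPM in Foxn3KO. Atp1b3, a beta subunit of the pump, measured 128 and 123 CPM in wild-type and 147 and 150 CPM in Foxn3KO (0.24, edgeR, Benjamini-Hochberg adjusted p = 0.00105). Slc12a5, the exporter that makes GABA inhibitory in mature neurons, rose by 0.20 (adjusted p = 0.0104), and Fxyd1, a pump regulator, fell by 0.38 (adjusted p = 0.0289). Slc12a5 did not pass without Foxn3KO replicate 1 (0.0924) or 2 (0.104), and Fxyd1 did not pass in DESeq2 (0.137), without wild-type replicate 2 (0.143) or without Foxn3KO replicate 2 (0.21). The list gave 4 calls in DESeq2 and 3 to 7 when each library was left out, with 3 without Foxn3KO replicate 2.

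Chloride channels moved both ways, with 2 of 15 tested higher and 2 lower (2 calls in DESeq2, and 2 to 6 when each library was left out). With all libraries that was 13.3% in each direction, beside 12.3% higher and 9.66% lower among all genes tested. Ano1, a calcium-activated chloride channel, was at 73.4 and 74.2 CPM in wild-type and 57.5 and 57.6 CPM in Foxn3KO (-0.36, adjusted p = 6.90e-05). Clcn2, a channel opened by hyperpolarisation, was at 54.8 and 54.6 against 43.2 and 46.2 CPM (-0.29, adjusted p = 0.0016, and 0.0522 without Foxn3KO replicate 1). Of 16 tested ciliary and sperm cation channels 1 passed (6.25%, beside 21.9% of all genes tested). It was Pkd2, a channel of the primary cilium, at 87.8 and 85.7 against 69.0 and 69.97 CPM (-0.32, adjusted p = 0.000151).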
